A study of Mus musculus with 4 samples.

Results

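The genes Ccnd1, Ccnd2, Ccnd3, Ccne1, Ccne2, Cdk2, Cdk4, Cdk6, Cdkn1b and Cdkn2c, which encode cyclins, kinases and inhibitors that control entry into the cell cycle, were followed in the T29 thymic lymphoma line after Notch-dependent transcription was blocked. They are 10 of the 18193 mouse genes that the array annotation named alone on at least 1 probe set, and they are read by 27 of 34945 such probe sets. Each gene was represented by its lead probe set, the one with the highest mean over the 4 arrays. T29 is a mouse cell line that the series design calls Ikaros-deficient. Ikzf1, the gene of Ikaros, nevertheless read 10.05 and 10.01 with ethanol and 10.53 and 10.46 with 4OHT (log2 values), a mean at the 84.2 percentile of tested genes. The labels do not say which part of the gene is altered, so this signal does not check the deficiency. All 4 samples had been transduced with MigR1-MLER, an inducible dominant-negative form of Mastermind, the co-activator of Notch. For 24 h, 2 samples received ethanol, the solvent, and 2 received 100 nM 4OHT, the tamoxifen metabolite used to switch on oestrogen receptor fusions. Because no 4OHT-treated sample lacking the construct was analysed here, the effect of the construct and that of 4OHT itself cannot be told apart. All samples come from 1 line, and separate cultures are not named for the replicates in the labels. The p-values therefore reflect the spread between arrays, part or all of which may be technical.

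D-type cyclins bind Cdk4 or Cdk6, and the active kinases phosphorylate the retinoblastoma protein family, which frees E2F transcription factors. E2F switches on the E-type cyclins, which activate Cdk2 for entry into S phase. Opposing this, INK4 inhibitors such as the product of Cdkn2c block Cdk4 and Cdk6, and CIP/KIP inhibitors such as p27, the product of Cdkn1b, bind cyclin-Cdk2 complexes. In immature T cells the main D-type cyclin is cyclin D3, which is needed for the expansion driven by the pre-T-cell receptor, and Ccnd3, Cdk4 and Cdk6 have been described as Notch-responsive in T-cell leukaemia.

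The promoters of the members with the largest shifts, and that of Cdk4, a known target of Myc, are given below from RefSeq (build GRCm38.p6), each running from 250 bases before to 50 bases after an annotated start site. Of the members, 7 had an entry, with 9 windows in all. The windows were searched on both strands for TGGGAA (the core recognised by the Notch partner RBPJ), CACGTG (the E-box recognised by Myc), TTTCGCGC, TTTGGCGC and TTTCCCGC (E2F forms) and GTAAACA and GTAAATA (FOXO forms). Matches are in capitals, and none overlapped another.
Cdk2, chr10:128705002-128705301, minus strand: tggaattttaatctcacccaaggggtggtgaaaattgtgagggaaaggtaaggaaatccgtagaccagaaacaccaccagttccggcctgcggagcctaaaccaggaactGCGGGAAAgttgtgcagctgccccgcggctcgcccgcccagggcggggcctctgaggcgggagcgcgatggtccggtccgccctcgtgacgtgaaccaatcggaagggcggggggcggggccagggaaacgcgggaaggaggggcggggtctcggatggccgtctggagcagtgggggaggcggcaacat
Cdkn2c, chr4:109665323-109665622, minus strand: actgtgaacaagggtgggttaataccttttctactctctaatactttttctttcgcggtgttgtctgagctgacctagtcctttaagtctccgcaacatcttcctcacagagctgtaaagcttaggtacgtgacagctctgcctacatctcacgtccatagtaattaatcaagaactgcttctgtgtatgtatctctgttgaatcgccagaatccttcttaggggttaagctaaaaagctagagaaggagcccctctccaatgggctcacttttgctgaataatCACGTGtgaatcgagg
Ccnd3, chr17:47504801-47505100, plus strand: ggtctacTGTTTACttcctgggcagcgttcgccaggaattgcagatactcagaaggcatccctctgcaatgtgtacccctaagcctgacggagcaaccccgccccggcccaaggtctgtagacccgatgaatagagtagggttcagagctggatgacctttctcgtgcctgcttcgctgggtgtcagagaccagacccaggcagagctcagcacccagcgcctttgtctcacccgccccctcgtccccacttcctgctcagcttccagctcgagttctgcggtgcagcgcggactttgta
Cdk4, chr10:127063285-127063584, plus strand: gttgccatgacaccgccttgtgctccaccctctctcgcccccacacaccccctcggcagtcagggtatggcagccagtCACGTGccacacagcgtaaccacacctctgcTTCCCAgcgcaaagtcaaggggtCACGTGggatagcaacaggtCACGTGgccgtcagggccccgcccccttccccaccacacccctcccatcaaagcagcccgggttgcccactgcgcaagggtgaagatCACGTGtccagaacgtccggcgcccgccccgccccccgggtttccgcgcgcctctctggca

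The Cdk4 window held 4 CACGTG matches, whose leftmost bases as printed lay at positions -172, -118, -98 and -11 from the start site, and the one TGGGAA match among the members, at -141 on the reverse strand of the window. CACGTG was found in 7.15% of all 32851 promoter windows and TGGGAA in 25.6%. In the Cdk2 window, TTTCCCGC matched on the reverse strand at -140, a motif held by 1.07% of windows. The printed Cdkn2c window lies around a start site inside the gene, and had a CACGTG at 35 bases into the transcript from that site. The outer start of Cdkn2c, at 109666756, falls in its other window (chr4:109666707-109667006). The upstream Ccnd3 window had a GTAAACA on the reverse strand at -243 (3.65% of windows). The other windows of Ccnd3 and Cdkn2c held none of these letter strings, and neither did those of Ccne1 and Cdkn1b, while the Cdk6 window held a CACGTG at -220. These matches describe letters and not sites of binding.

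Most of these genes did not pass the test. Of the 9 members above the testing floor (a mean log2 value of 4.81, which 40% of probe sets naming 1 gene did not reach), Cdk2 rose, none fell, and 8 did not pass limma's test at an adjusted p under 0.05. Over all 11581 genes tested, 3.90% were higher and 3.57% lower by the same rule. An unadjusted p under 0.05 was reached by 2 members that were higher (Cdk2 and Cdkn2c) and 1 that was lower (Ccnd3), 3 of 9 in all. Over all tested genes, 12.3% were higher and 13.2% lower at that unadjusted p in limma, and 25.5% in either direction, so such counts, here and in the gene lists of the pathway, are read against that share. The groups did not overlap for 6 of the 9 tested members, and for 56.9% of all tested genes. The median log2 change of these 9 was 0.07, against -0.01 over all genes, and the median size of change regardless of sign was 0.17 against 0.15. Leaving out any 1 array left no member called in limma. Those fits have 1 array in a group and lost most calls over all genes. A lost call in them therefore says little about a single gene. The log2 change in them was 0.39 to 0.42 for Cdk2, 0.35 to 0.50 for Cdkn2c and -0.51 to -0.31 for Ccnd3.

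**Figure D1:**
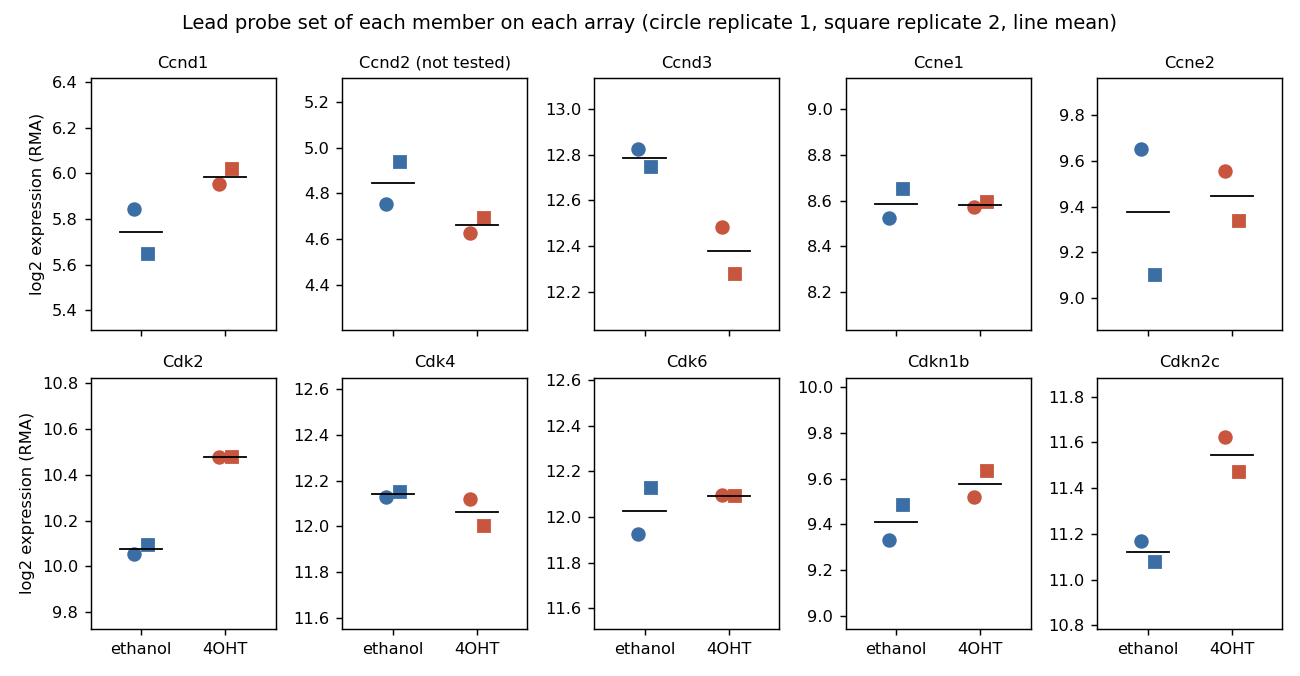
Log2 expression value (RMA) of the lead probe set of each of the 10 genes on every array, with ethanol in blue, 4OHT in red, circles for replicate 1, squares for replicate 2 and lines for group means; every panel spans the same range on the log2 axis. Cdk2 and Cdkn2c sit higher and Ccnd3 sits lower on both 4OHT arrays, whereas the ethanol arrays of Ccne2 span the 4OHT ones.

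Cyclin D3, the D-type cyclin with a strong signal here, was lower on its lead probe set, though not past the threshold. Ccnd3 stood at 12.83 and 12.75 (log2 values) on the ethanol arrays and at 12.48 and 12.28 on the 4OHT arrays. Both 4OHT arrays were below both ethanol arrays. The log2 change was -0.41 ± 0.11 (SE; 95% interval -0.67 to -0.14; n = 2 each), a level 1.33-fold lower, with a limma adjusted p of 0.0823. Over the alternatives tried, that adjusted p ran from 0.0203 to 0.879, and it was 0.0224 when limma's prior followed an intensity trend.

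The other Ccnd3 probe sets did not move alike. Probe set 1438805_at was at 6.68 and 6.71 with ethanol and at 7.73 and 7.45 with 4OHT, so that both 4OHT arrays were above both ethanol arrays. Its log2 change was 0.90 ± 0.13 (SE), and it was the one probe set of the 27 called in the limma fit over all 34945 named probe sets (adjusted p = 0.0267), where 1.52% were higher and 0.953% lower. Without 1 array its adjusted p was between 0.062 and 0.138 in limma, and the change stayed between 0.76 and 1.04. Probe set 1444323_at went the other way, from 8.26 and 7.44 with ethanol to 7.49 and 6.97 with 4OHT, with groups that overlapped (log2 change -0.63, adjusted p = 0.339 in limma). That change was -0.22 without ethanol replicate 1, -0.36 without 4OHT replicate 2 and -1.03 without ethanol replicate 2, and with the replicate number as a block it was called lower (adjusted p = 0.0086 in limma). Averaging the 3 probe sets brought the log2 change of Ccnd3 to -0.05 (limma adjusted p = 0.879). The files give no positions for the probe sets, so which Ccnd3 transcripts each reads was not tested.

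**Figure D2:**
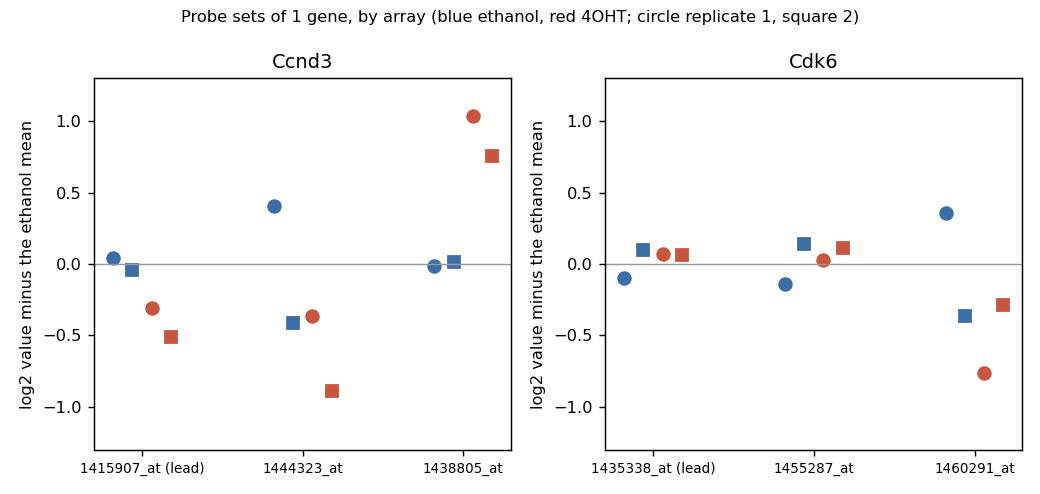
Log2 value of every probe set of Ccnd3 (left) and Cdk6 (right) on each array, minus the mean of its ethanol arrays; ethanol is blue, 4OHT red, replicate 1 a circle and replicate 2 a square. For Ccnd3 the lead probe set and 1438805_at separate the groups in opposite directions, and for Cdk6 the probe set 1460291_at departs from the other probe sets of the gene.

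Cyclins D1 and D2 gave weak signals. The lead probe set of Ccnd1 read 5.84 and 5.65 with ethanol and 5.95 and 6.02 with 4OHT, higher on both 4OHT arrays without passing (log2 change 0.24 ± 0.10 SE, 95% interval -0.02 to 0.50, limma adjusted p = 0.22). Its other 2 probe sets were at -0.09 and -0.03 on the same scale, so the gene's probe sets differed in sign. Ccnd2 was not tested, since its lead probe set, at 4.75 and 4.94 with ethanol and at 4.63 and 4.69 with 4OHT, averaged 4.75, just under the floor. None of its 7 probe sets reached the floor. All 7 lay between 2.82 and 4.94, and 6 of them were lower with 4OHT, by up to 0.32 on the log2 scale (lowest adjusted p = 0.317 in limma over all probe sets).

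Unequal change within the D family was examined as the log2 difference between lead probe sets on each array. Ccnd1 was at 0.24 and Ccnd3 at -0.41, opposite signs and a signed difference of 0.65 that separated the groups. The differences from Ccnd2 are not read here, because none of its probe sets reached the floor. With 2 arrays against 2 the two-sided exact permutation test cannot give a p under 0.333, the value found for Ccnd1 with Ccnd3. After Benjamini-Hochberg adjustment over the 6 pairs examined, each pair was at 0.667 or above by this permutation test. When probe sets were averaged per gene, the difference between Ccnd1 and Ccnd3 was 0.087.

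The E-type cyclins, partners of Cdk2, had log2 changes smaller than the spread between arrays of a group. Ccne1 was at 8.52 and 8.65 with ethanol and at 8.57 and 8.59 with 4OHT. Its 4OHT arrays lay inside the ethanol range, and the log2 change was -0.0046 ± 0.091 (SE; 95% interval -0.23 to 0.22; limma adjusted p = 0.981). The second Ccne1 probe set, 1416492_at, changed by 0.0061 on the log2 scale. Ccne2 was at 9.65 and 9.10 with ethanol and at 9.56 and 9.34 with 4OHT, and replicate 1 was the higher array in both groups. Its log2 change of 0.07 ± 0.20 (SE) had the widest interval of the members, -0.42 to 0.56 (limma adjusted p = 0.849). Leaving out ethanol replicate 2 turned it to -0.20, and leaving out ethanol replicate 1 gave 0.35.

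Cdk2, the kinase that the E-type cyclins activate, was the member that rose. Its lead probe set read 10.06 and 10.09 with ethanol and 10.48 and 10.48 with 4OHT. The arrays of a group lay within 0.04 of each other (SD 0.03 with ethanol and 0.002 with 4OHT), and the groups did not overlap. The level was 1.32-fold higher with 4OHT (log2 change 0.40 ± 0.08 SE, 95% interval 0.20 to 0.61, limma adjusted p = 0.049). That call lies at the threshold: it was lost without any 1 array (adjusted p from 0.133 to 0.186 in limma), with no filter on dim genes (0.0709), with median centring (0.0524), without probe sets marked for cross-hybridisation (0.0533) and when all probe sets were tested (0.103). With the mean of its 2 probe sets the change was 0.22 (adjusted p = 0.187). The second probe set, 1447617_at, had values from 2.41 to 2.57 on all arrays, far under the floor.

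Among all tested genes, the 5 whose centred values over the 4 arrays lay nearest to those of Cdk2 were Xiap, an inhibitor of caspases, Smad3, a transducer of TGF-beta signals, Polr3gl, a subunit of RNA polymerase III, Map7, a microtubule-associated protein gene, and Ccdc82. Their Euclidean distances to Cdk2 were 0.019, 0.020, 0.030, 0.031 and 0.039 log2 units. Xiap, for example, went from 10.22 and 10.24 to 10.62 and 10.63. With 4 arrays in 2 groups, such nearness means little more than a like change and a like small spread.

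The D-cyclin kinases gave strong signals in both groups. Cdk4 was at 12.13 and 12.15 with ethanol and at 12.12 and 12.00 with 4OHT. Although the groups did not overlap, the nearest arrays were within 0.01 of each other, and the log2 change of -0.08 ± 0.09 (SE; 95% interval -0.30 to 0.15) did not pass (limma adjusted p = 0.632). Its 3 probe sets changed by -0.08, -0.06 and -0.04. Myc itself, whose E-box recurs in the Cdk4 promoter window above, fell from 11.63 and 11.94 to 10.96 and 11.12 (log2 change -0.74 ± 0.13 SE, adjusted p = 0.0358 in limma, and 0.0591 to 0.167 without 1 array). Mycn, a relative of Myc, gave a stronger signal, at 13.59 and 13.69 with ethanol and at 13.91 and 13.83 with 4OHT. Its groups did not overlap, and it did not pass (log2 change 0.23 ± 0.09 SE, limma adjusted p = 0.187). Whether Myc or Mycn acts on Cdk4 in these cells was not tested.

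Cdk6 read 11.93 and 12.13 with ethanol and 12.10 and 12.09 with 4OHT, both 4OHT arrays inside the ethanol range (log2 change 0.07 ± 0.10 SE, 95% interval -0.19 to 0.32, limma adjusted p = 0.72). A second probe set, 1455287_at, gave the same log2 change of 0.07. The third, 1460291_at, was at 9.15 and 8.43 with ethanol and at 8.02 and 8.50 with 4OHT, where the groups overlapped (log2 change -0.53, limma adjusted p = 0.375; -0.17 without ethanol replicate 1, -0.29 without 4OHT replicate 1 and -0.89 without ethanol replicate 2). With the mean of the 3 probe sets the change of Cdk6 became -0.13, and it was -0.03 without ethanol replicate 1. Between Cdk4 and Cdk6 the changes of the lead probe sets differed by -0.15 with overlap of the arrays (exact permutation p = 0.667, two-sided), a value of -0.055 without ethanol replicate 1.

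**Figure D3:**
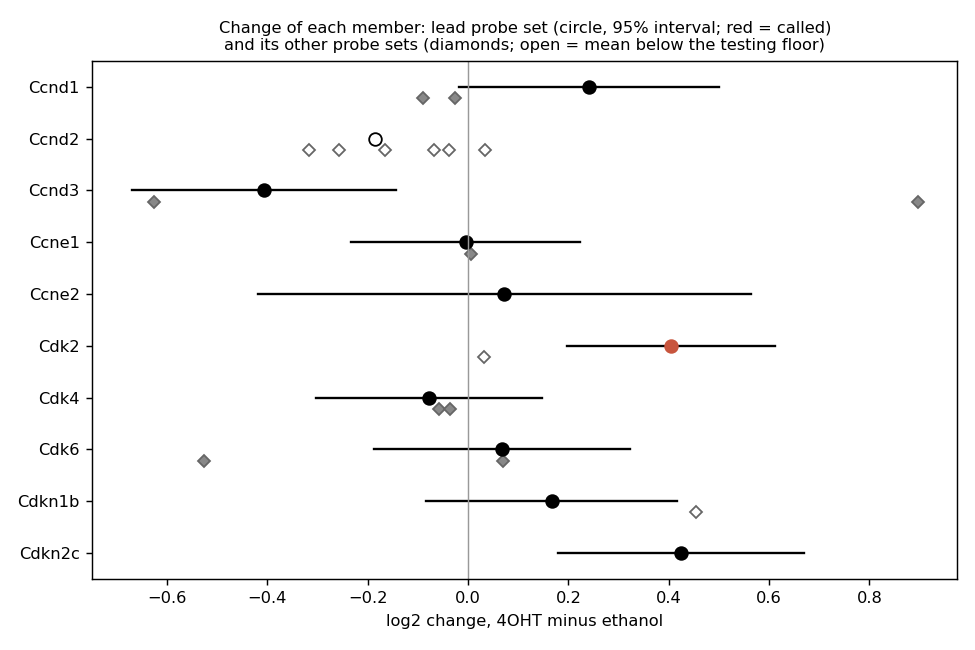
Log2 change, 4OHT minus ethanol, of the lead probe set of each gene (circles with limma's 95% interval, Cdk2 in red as the called gene; Ccnd2, under the testing floor, as an open circle with no interval) and of its other probe sets (diamonds, open where the mean is under the floor). The intervals of Ccnd3, Cdk2 and Cdkn2c do not reach 0, and for Ccnd1, Ccnd2, Ccnd3, Ccne1 and Cdk6 probe sets lie on both sides of 0.

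Of the lead probe sets of the 2 inhibitors among the members, that of Cdkn2c had the larger shift. This gene, which encodes the INK4 protein p18, was at 11.17 and 11.08 with ethanol and at 11.62 and 11.47 with 4OHT. The groups did not overlap and the level was 1.34-fold higher with 4OHT. The log2 change of 0.42 ± 0.10 (SE; 95% interval 0.18 to 0.67) did not pass (limma adjusted p = 0.0633). That p lay between 0.0158 and 0.237 over the alternatives, and it was 0.0433 with a filter at the 60th percentile and 0.0198 with an intensity trend. The gene has 1 probe set, so no second reading was available.

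For Cdkn1b, the lead probe set read 9.33 and 9.49 with ethanol and 9.52 and 9.63 with 4OHT. Ethanol replicate 2 and 4OHT replicate 1 were 0.03 apart, and the log2 change of 0.17 ± 0.10 (SE; 95% interval -0.08 to 0.42) did not pass in limma (adjusted p = 0.357). The second probe set, 1419497_at, was under the floor on average, at 4.04 and 4.44 with ethanol and at 4.52 and 4.86 with 4OHT, a log2 change of 0.45 (limma adjusted p = 0.261 over all probe sets). Cdkn1b changed by -0.26 relative to Cdkn2c, with groups 0.0032 apart (exact permutation p = 0.333, the smallest possible). The difference was -0.13 without 4OHT replicate 1 and -0.14 without ethanol replicate 2, -0.39 without 4OHT replicate 2, and -0.11 with the mean of probe sets.

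Beyond the members, 87 genes of the pathway in 6 lists were read from the same fit, and 77 were tested. Of these, 6 were higher and 4 lower, with a median log2 change of 0.04 against -0.01 over all genes. Over all tested genes, 3.90% were higher and 3.57% lower at limma's adjusted p under 0.05, and 12.3% and 13.2% at its unadjusted p under 0.05. The counts of each list below are read against these shares. Of 5 tested inhibitors outside the members, 1 rose and none fell (unadjusted p under 0.05 in limma for 2 higher and 0 lower). It was Cdkn2d, which encodes the INK4 inhibitor p19 and went from 9.63 and 9.49 to 10.15 and 10.07 (log2 change 0.55 ± 0.10 SE, limma adjusted p = 0.0346). Without any 1 array that call was lost, as most calls over all genes were. Cdkn3, a CDK-associated phosphatase gene, had the next smallest limma adjusted p, 0.115, at 0.37 on the log2 scale. Cdkn2a, which encodes the INK4 inhibitor p16 and ARF, was at -0.47 with overlapping groups (adjusted p = 0.564 in limma). The list median was 0.20.

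Among 13 RB and E2F genes, 1 rose and none fell, while limma's unadjusted p was under 0.05 for 5 higher and 2 lower genes. E2f7, an atypical E2F that represses E2F targets, went from 6.36 and 6.30 to 7.14 and 7.17 (log2 change 0.83 ± 0.08 SE, limma adjusted p = 0.0123). Its call was lost without any 1 array, as most calls over all genes were. Rbl2, the p130 pocket protein gene, was at 8.08 and 8.48 with ethanol and at 8.85 and 8.97 with 4OHT. It did not pass (log2 change 0.63, limma adjusted p = 0.0659). Also higher at an unadjusted p under 0.05 were E2f2, Rb1 and Tfdp2, by 0.42, 0.33 and 0.28 on the log2 scale. The lower genes were E2f6 at -0.42 and E2f1 at -0.34 (limma adjusted p = 0.0807 and 0.101). The list median was 0.03.

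Neither the list of CDK activation and phosphatase genes nor that of ubiquitin ligase and Cks genes held a call. None of the 8 genes of the first list passed in limma, and none did at an unadjusted p under 0.05. Cdc25a, the phosphatase that activates Cdk2, was at -0.19 on the log2 scale (adjusted p = 0.338) and Ccnh at -0.18 (adjusted p = 0.372). Of 11 ubiquitin ligase and Cks genes, none passed in limma and 1 was lower at an unadjusted p under 0.05. That was Fbxo31, an F-box protein gene, at -0.39 (adjusted p = 0.123), followed by Fbxo4 at 0.17 (adjusted p = 0.34). The list medians were -0.02 and -0.0015.

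Of 25 other cyclin and CDK genes, 1 rose and none fell, with a list median of 0.08. An unadjusted p under 0.05 in limma was reached by 6 higher genes and 1 lower, Cdk8 at -0.34. Of those not called, Ccnb2 had the smallest limma adjusted p, 0.0539, at 0.39 on the log2 scale. Ccng2, an unconventional cyclin of resting cells, went from 10.25 and 10.14 to 10.79 and 10.88 (log2 change 0.64 ± 0.09 SE, limma adjusted p = 0.0242; 0.0799 to 0.115 without 1 array). Among 15 upstream regulators of such genes, 3 were higher (Bcl6 by 0.83, Foxo3 by 0.59 and Ikzf1 by 0.47 on the log2 scale) and 4 lower (Notch3 at -1.68, Notch1 at -0.86, Myc at -0.74 and Lef1 at -0.73), with limma adjusted p-values from 0.018 to 0.0361. Notch3 kept its call in 2 and Notch1 in 1 of the 4 fits that left out an array, and the other 5 in none. The list median was -0.02. Of the 10 called pathway genes, Cdkn2d, E2f7 and Myc have 1 probe set each. Each further probe set of the rest moved in the same direction as the lead one.

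**Figure D4:**
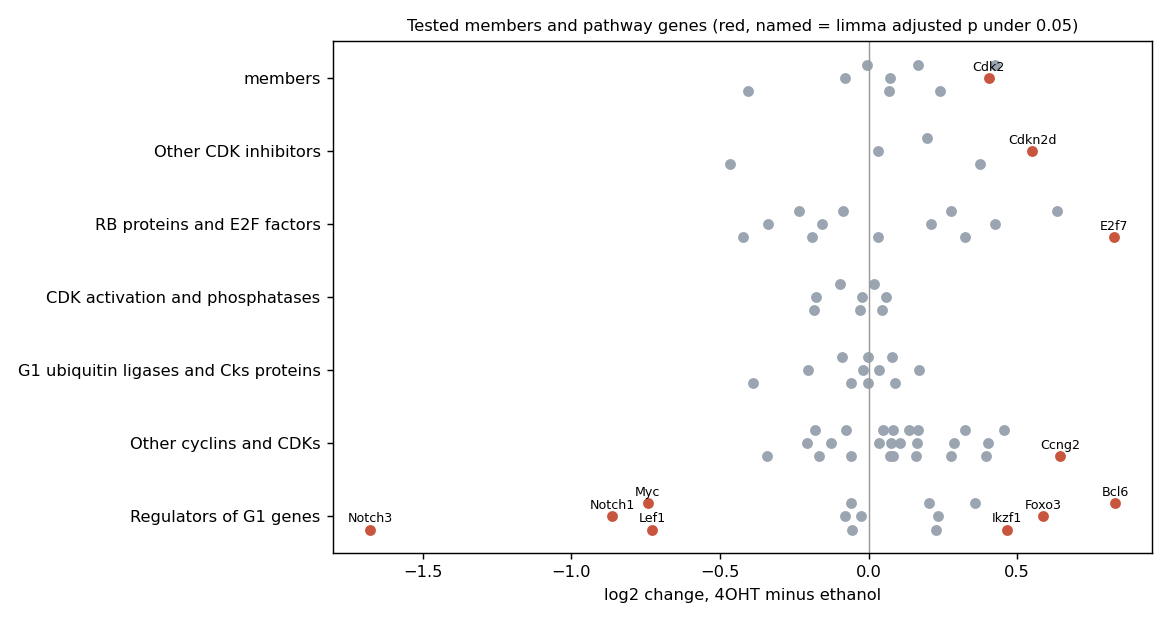
Log2 change, 4OHT minus ethanol, of the 9 tested members (top row) and of the tested genes of the 6 pathway lists, 1 point per gene, with genes past a limma adjusted p of 0.05 in red and named. The called genes of the inhibitor, E2F and cyclin lists all lie above 0, and those below 0 are Notch3, Notch1, Myc and Lef1.

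As for the samples themselves, arrays correlated at 0.995 within the ethanol group and 0.995 within the 4OHT group, and at 0.983 to 0.987 between groups (Pearson's r across 11581 genes, which are not independent replicates). As a sign of RNA quality, Actb control probe sets read 0.40 to 0.49 (log2) more at the 3′ than at the 5′ end on all arrays. The same excess for Gapdh was -0.07 and 0.03 on the ethanol arrays and -0.03 on each 4OHT array. That for 18S ribosomal RNA was 0.05 and 0.32 on the ethanol arrays, against 0.90 and 0.82 on the 4OHT arrays. The 18S value thus moved with the groups, whereas those of Actb and Gapdh overlapped between them. The part of the 18S difference in the values of Cdk2, Cdkn2c and Ccnd3 was not tested. Of 13 T-lineage markers with a probe set, 11 were above the floor, with Cd2 and Cd5 below it, and 2 were higher and 2 lower with 4OHT (Cd247 and Cd8a; Cd3g and Ptcra). Markers of other lineages were above the floor in 2 of 6 B-cell, 2 of 7 myeloid, 2 of 4 erythroid and 3 of 8 stromal, epithelial and endothelial genes. The summed log2 level of the erythroid markers was 7.94 to 8.10 with ethanol and 7.69 with 4OHT, with Alas2 and Hba-a1 under the floor. Sums of the other lists were 7.12 to 7.14 and 7.04 to 7.05 for B-cell, 7.82 to 7.85 and 7.79 to 7.80 for myeloid, and 9.53 to 9.56 and 9.60 to 9.86 for stromal, epithelial and endothelial markers, among which Pecam1 was the called gene (0.93 on the log2 scale, limma adjusted p = 0.0165). Whether these shifts bear on the members was not tested.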

How the data were processed

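The deposited values of the 4 Affymetrix arrays are log2 expression values; per the submitters' processing notes the authors used RMA, a method that removes background, equalises signal distributions between arrays and combines each set's probes into 1 value. Sources used here give no version, and the log2 scale was read from the values (2.25 to 14.6). RMA gives no detection call, and changes near background can be understated. The number of arrays limits the precision.

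Of 45101 probe sets, 34945 named 1 gene. Each of 18193 genes took its probe set with the highest mean over the 4 arrays, and 11581 with a mean of at least 4.81 were tested genome-wide with limma 3.58.1 in R 4.3.3 (lmFit, eBayes, no trend, no block; Benjamini-Hochberg over all genes tested; called at an adjusted p under 0.05). The 95% intervals come from the same fit, a second fit covered all named probe sets, and differences between relatives used the exact permutation test. Named were all members, called pathway genes or otherwise the 2 with the smallest adjusted p in a list, and the 5 nearest profiles of the called member with the largest change. Members, lists and motifs were chosen with earlier results of these data known. Cdkn2a, Cdkn3, Rbl2, E2f1, E2f2, E2f6, Rb1, Tfdp2, Ccnb2, Cdk8, Mycn and single marker genes were named after their values were seen. On simulated data for this comparison (11581 genes, 200 of them changed, 10 runs), the fit recovered 4.63% of log2 changes of 0.5, 57.8% of changes of 1 and 86.8% of changes of 2. On average 3.54% of its calls were false. More genes were called in the data than were changed in the simulation, so these shares need not hold for the data.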

Additional observations from a re-analysis of the deposited data

How the results depend on the processing

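Of the 9 tested members, Ccnd1, Ccnd3, Cdk2, Cdk4, Cdkn1b and Cdkn2c kept the sign of their change under every alternative run. Ccne1, Ccne2 and Cdk6 did not. The dim-gene filters, the block, the trend fits, the thresholds and the fit of all probe sets keep a gene's log2 change as it was. A sign could therefore turn only with another normalization, with other probe sets or without 1 array. Ccnd1 was not tested under the 60th percentile filter. The replicate numbers are not said to mark shared cultures; deviations of same-numbered arrays correlated at 0.343 over 11581 genes, with 2 pairs only. A paired fit with the replicate block called 1104 genes higher and 1031 lower (452 and 413 without it), 2 members higher (Cdk2, Cdkn2c) and 1 lower (Ccnd3), 14 pathway genes higher and 8 lower, and 4 member probe sets. That fit leaves 1 residual degree of freedom. An intensity trend called 663 genes higher and 636 lower, and 2 members higher and 1 lower. It called 13 pathway genes higher and 4 lower, and 4 member probe sets. With a robust prior it called 679 genes higher and 666 lower, and again 2 members higher and 1 lower. Pathway genes were then 13 higher and 5 lower, with 4 member probe sets called. The share of all probe sets called in the block and trend fits is not given here. The 4 probe sets in each are therefore not read as a result about the members. An adjusted p under 0.1 gave 853 genes higher and 824 lower, 2 members higher and 1 lower, and 11 pathway genes higher. The 1.5-fold minimum left 310 genes higher, 223 lower and 0 members higher. Testing all probe sets, with each gene read from its lead one, left 274 genes higher, 207 lower and 0 members. The Ccnd3 probe set 1438805_at, not a lead one, was called higher in that fit. No member was called higher with no filter, median centring, the mean of probe sets, or without _x_at and _s_at probe sets (0 each, with 2 at an unadjusted p under 0.05 in limma); a 60th percentile filter gave 2. Leaving out 1 array gave 9 to 125 genes higher (9 without 4OHT replicate 1, 125 without ethanol replicate 2), 12 to 66 lower, 0 members higher and 0 lower, 0 pathway genes higher and 0 to 2 lower, and 0 called member probe sets, with 1 residual degree of freedom. With the mean of probe sets, the differences of change were 0.18 (Ccnd1 minus Ccnd2), 0.087 (Ccnd1 minus Ccnd3), -0.097 (Ccnd2 minus Ccnd3), with Ccnd2 under the floor, and 0.072 (Cdk4 minus Cdk6). Changes of sign were 0.00078 (mean) and 0.0061 (no _x_at or _s_at) for Ccne1 and -0.13 (mean) for Cdk6; without 1 array, Ccne1 ranged from -0.070 to 0.061, Ccne2 from -0.20 to 0.35 and Cdk6 from -0.033 to 0.17. The causes were not tested.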
